A study of Mus musculus with 8 samples.

Results

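The type I interferon response was examined as 42 genes chosen by symbol, of 24883 gene entries in the deposited count table. They comprise 4 receptor and kinase genes, 6 transcription factor genes, 6 genes of nucleic acid sensors and their adaptor, 8 genes of ubiquitin-like and ADP-ribosylation regulators and 18 genes of antiviral effectors. RNA came from cultured ASZ001 cells, a line from basal cell carcinoma of the mouse, in 8 libraries, 2 for each of 4 groups. All cells carried a doxycycline-inducible vector and had doxycycline for 24 h. The vector was empty in the control group. In the other 3 groups it held c-FOS, which with a Jun protein makes up AP-1, and the cells then had DMSO vehicle, 5 µM afatinib or 10 µM UO126 for 6 h. Afatinib inhibits the EGFR family of receptor tyrosine kinases, and UO126 inhibits the kinases MEK1 and MEK2 downstream of them. The label of the empty-vector libraries names doxycycline and no vehicle, so an effect of DMSO cannot be told apart from one of c-Fos. The sources used here do not give the species of the c-FOS insert, or whether each vector line was a clone or a pool.

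Type I interferons bind the receptor made of IFNAR1 and IFNAR2, which signals through the kinases JAK1 and TYK2. These phosphorylate STAT2, which joins IRF9 in the factor ISGF3. ISGF3 binds the interferon-stimulated response element (ISRE) in promoters of genes for sensors of viral nucleic acid, antiviral effectors and parts of the pathway itself. Many cells keep a low level of this response without infection.

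Total counts per library lay between 17901974 and 23126048. Fos, the induced gene, had 937.5 and 1040.5 counts with the empty vector and between 18209 and 23573.5 in the c-Fos libraries. Levels are also given as CPM, the count scaled to the size of its library. Fos stood at 1163 and 1120 CPM in the DMSO libraries and 1106 and 1080 in the afatinib libraries. The UO126 libraries, at 812.8 and 875.1 CPM, lay below all of these. The part of this lower level in the UO126 comparisons was not tested. All 10 basal keratinocyte and carcinoma markers passed the low-count filter. Their levels ran from Gli1, at 7.50 to 14.4 CPM, to Krt5, at 7046 to 8683 CPM. With c-Fos 3 of the 10 were higher (Krt14, Itgb4 and Epcam) and 3 lower (Krt17, Trp63 and Gli1). Of 12 leukocyte markers, 2 had no count in any library and 1 passed the low-count filter, Csf1r. The summed level of the list lay between 0.519 and 0.680 CPM with the empty vector, 1.48 and 2.29 CPM with DMSO, 3.94 and 4.38 CPM with afatinib and 3.39 and 4.52 CPM with UO126. The rise was largely that of Csf1r. Its mean was 0.162 CPM in empty-vector libraries and 1.491 CPM in DMSO libraries. In afatinib libraries it was 3.712 CPM and in UO126 libraries 3.455 CPM. Each other marker of the list stayed at or below 0.34 CPM in every library. The sum thus follows 1 gene and not the list as a whole. The part of these markers in the results below was not tested. The 2 UO126 libraries stood further apart than those of the other groups, with a chi-square per degree of freedom over genes of 25.1, against 4.85 for the empty vector, 8.6 for DMSO and 9.17 for afatinib. No label says that the 2 libraries of a group were separate cultures, so the p-values rest on a spread between libraries that may be technical. In these bulk samples, fewer cells of a type and less RNA per cell cannot be told apart.

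How induced c-Fos altered these genes was read from the DMSO-treated c-Fos cells and the empty-vector cells. Of the 42 genes, 35 had enough counts to be tested (edgeR quasi-likelihood test), and with c-Fos 24 were lower and 0 higher. At an unadjusted p under 0.05 there were 26 lower and 0 higher, and the DESeq2 Wald test called 19 lower and 0 higher. Over all 12879 genes tested, 42.2% were called, 20.7% lower and 21.5% higher. The median log2 fold change of the 35 was -0.79, and -0.005 over all genes tested. Of the 35, 9 reached the minimum level only through the empty-vector group of the pair (Irf7, Ifih1, Isg15, Usp18, Parp14, Dtx3l, Ifit1, Rsad2 and Cmpk2), so a fall in these was in part set by the filter. Among the other 26, which reached it in both groups, 17 were lower, with a median of -0.58. Without empty vector replicate 1 the count of lower genes was 16, and with a filter of at least 5 CPM it was 12 of 19 tested.

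**Figure D1:**
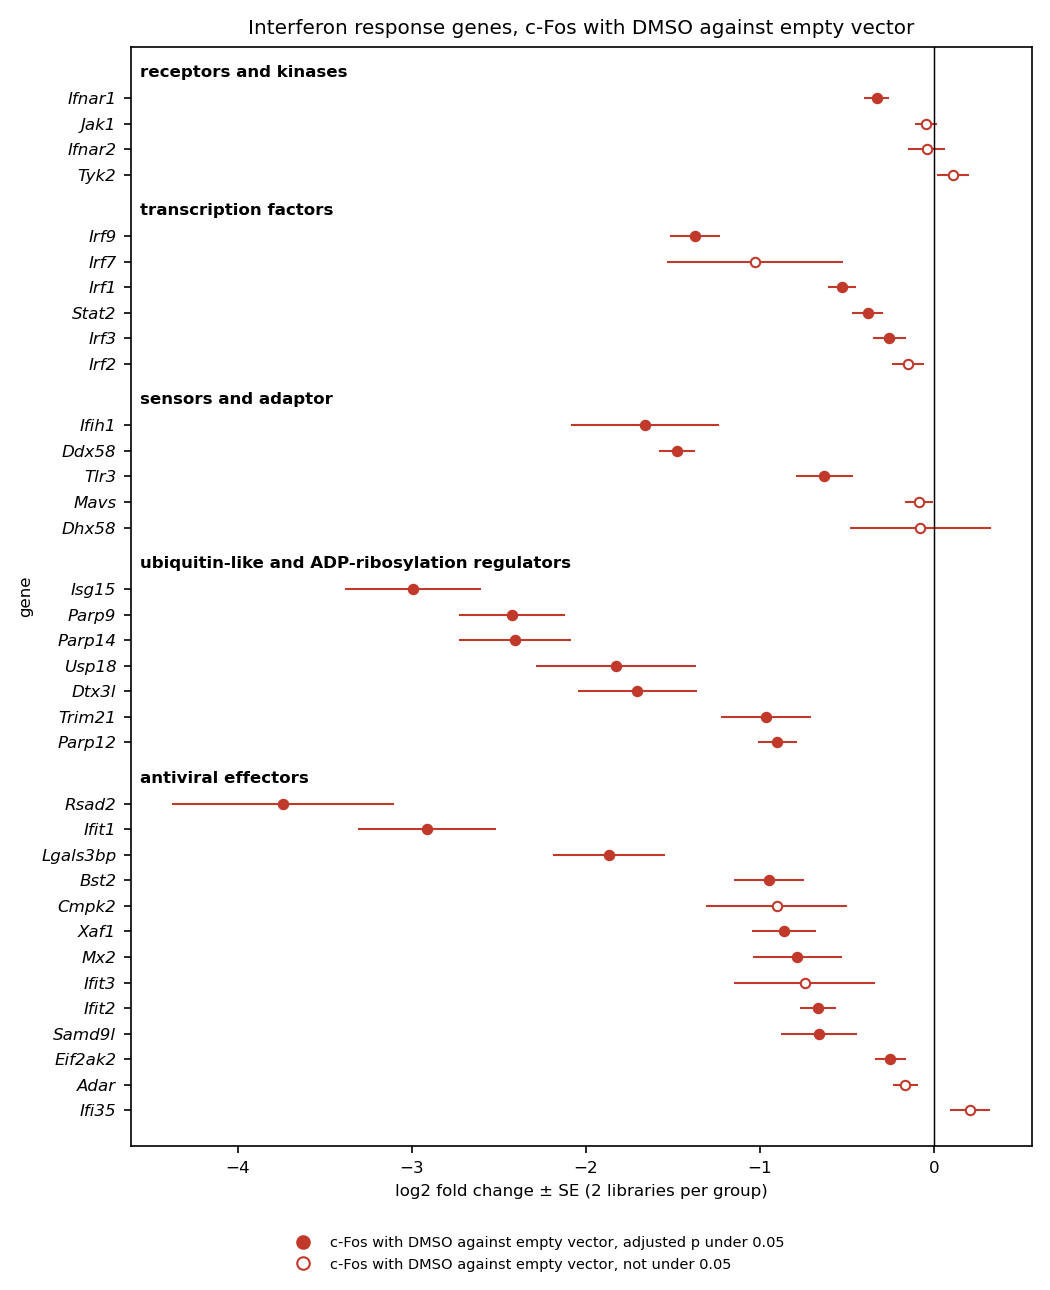
Log2 fold change (x axis, ± SE) of the 35 tested interferon response genes (y axis, grouped by role) in c-Fos cells with DMSO against empty-vector cells, 2 libraries per group. Filled points have an adjusted p under 0.05: all 24 of them lie below 0, and of the 11 open points those of Tyk2 and Ifi35 lie above 0.

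The promoters of several members carry the letters of the ISRE, and these are shown because the genes concerned include the members with the largest falls. RefSeq promoter windows of the build GRCm38.p6, from 250 bases before the start site to 50 after it, were found for 34 of the 42 genes. The letters GAAANNGAAA, on either strand, occurred in the windows of 12 of the 34 genes, against 3.99% of all 27025 genes with a window. A longer form, GAAANNGAAACT, occurred in 5 of the 34 and in 0.303% of all genes. Windows of 60 bases wholly before the start site are given 5′ to 3′ on the strand of the gene, with every match to the shorter form in capitals. Overlapping matches run together, and on the opposite strand the form reads TTTCNNTTTC.
Isg15, chr4:156200856-156200915, minus strand: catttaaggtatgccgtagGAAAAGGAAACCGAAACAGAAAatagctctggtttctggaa
Ifit1, chr19:34640769-34640828, plus strand: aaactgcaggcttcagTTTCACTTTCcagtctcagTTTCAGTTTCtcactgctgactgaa
Rsad2, chr12:26456538-26456597, minus strand: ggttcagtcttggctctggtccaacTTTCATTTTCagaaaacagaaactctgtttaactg
Bst2, chr8:71537565-71537624, minus strand: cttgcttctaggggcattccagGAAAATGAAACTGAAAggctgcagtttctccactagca
Stat2, chr10:128270251-128270310, plus strand: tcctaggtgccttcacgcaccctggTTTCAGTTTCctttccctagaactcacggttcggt

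Isg15 held 3 overlapping matches, Ifit1 and Bst2 held 2 each, and Rsad2 and Stat2 held 1 each. The 5 genes printed were chosen with their values known, and all 5 were lower with c-Fos. Of these, Isg15, Ifit1 and Rsad2 reached the minimum level only through the empty-vector group of the pair. Of 11 tested members with the letters 9 were lower with c-Fos, with a median log2 fold change of -0.967. Of 19 tested members with a window without the letters 11 were lower, with a median of -0.631. Over all genes tested 20.7% were lower. Ifih1, among the 11, and Irf7, Dtx3l and Cmpk2, among the 19, also reached the minimum level only through the empty-vector group. Both counts and medians were thus in part set by the filter, and the difference was not tested. Ifit3 and Irf2, which were tested and not called, and the untested Oas1a also held matches before the start site. In Ddx58, Ifih1, Eif2ak2 and Trim21 the match lay at or after it. A match is a description of letters, not a binding site.

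Among the receptor and kinase genes, 1 of 4 was lower with c-Fos, near the 20.7% of all genes tested. Ifnar1, the receptor chain that recruits TYK2, stood at 65.0 and 61.7 CPM with the empty vector, 53.0 and 47.8 with DMSO, 56.6 and 55.1 under afatinib and 53.3 and 53.4 under UO126. Both empty-vector libraries lay above all 6 c-Fos libraries. Its log2 fold change with c-Fos was -0.33 ± 0.072 (adjusted p = 0.0025), no longer called without c-Fos with DMSO replicate 2 (adjusted p = 0.05, at the threshold). Jak1, the kinase bound to IFNAR2, had 186 and 182 CPM with the empty vector and 180 and 176 with DMSO, a log2 difference of -0.045 with a 95% interval from -0.18 to 0.09. Tyk2 had 27.9 and 27.6 CPM against 32.1 and 27.7, overlapping groups, with an interval from -0.09 to 0.31. For Ifnar2 the interval ran from -0.27 to 0.18. Per kilobase of transcript, Jak1 was the most abundant tested member with the empty vector, at 34.8 CPM per kilobase, against 9.05 for Ifnar1, 5.72 for Tyk2 and 4.86 for Ifnar2.

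Of the 6 transcription factor genes 4 were lower with c-Fos, against 20.7% of all genes tested. Irf9, the DNA-binding subunit of ISGF3, started from 11.95 and 10.2 CPM in empty-vector cells. It stood at 4.35 and 4.205 CPM with DMSO, at 5.70 and 6.42 under afatinib and at 5.98 and 5.40 under UO126. The groups did not overlap, and the log2 fold change with c-Fos was -1.37 ± 0.14 (adjusted p = 4.8e-06). Stat2, its partner, had 28.3 and 26.7 CPM with the empty vector, 21.3 and 20.9 with DMSO, 35.6 and 35.2 under afatinib and 35.1 and 39.0 under UO126. DMSO libraries were thus the lowest and inhibitor libraries the highest. With c-Fos the change of Stat2 was -0.38 ± 0.087 (adjusted p = 0.0031), not called without empty vector replicate 1 (adjusted p = 0.052).

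Irf1, an early interferon-induced activator, had 36.5 and 37.1 CPM with the empty vector and 25.4 and 25.7 with DMSO. With afatinib it had 16.4 and 15.4 CPM and with UO126 24.0 and 25.8. Its libraries formed 3 levels, with DMSO and UO126 sharing the middle one, and the change with c-Fos was -0.53 ± 0.081 (adjusted p = 1.6e-04). Irf3, the factor that sensors activate to induce interferon, had 46.7 and 51.7 CPM with the empty vector, 40.4 and 41.9 with DMSO, 37.1 and 34.65 under afatinib and 39.65 and 47.6 with UO126. Its change with c-Fos of -0.26 (adjusted p = 0.04) was not called without either empty-vector, DMSO or afatinib library in turn (adjusted p between 0.055 and 0.26), nor with the DESeq2 Wald test (0.1). Irf2, which can repress the same promoters, was at -0.15 with an interval from -0.34 to 0.045, and Irf7, which amplifies interferon induction, was listed with 14.5 and 15.5 counts against 4 and 7.5 (adjusted p = 0.12).

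Of the sensors and their adaptor 5 were tested and 3 were lower with c-Fos, against 20.7% of all genes tested. Ddx58, which encodes the RNA sensor RIG-I, had 73.7 and 62.2 CPM with the empty vector, 25.5 and 23.3 with DMSO, 32.7 and 39.1 under afatinib and 40.9 and 40.9 under UO126. All inhibitor libraries lay between the other 2 groups. The change with c-Fos was -1.48 ± 0.10 (adjusted p = 1.5e-07), the largest fall among members at 5 CPM or more. Tlr3, the endosomal receptor for double-stranded RNA, had 63.8 and 59.1 CPM with the empty vector and 38.9 and 40.6 with DMSO. It went on to 20.6 and 23.4 CPM under afatinib and 22.7 and 14.4 under UO126, where the 2 libraries stood well apart. Its change with c-Fos of -0.63 ± 0.16 (adjusted p = 0.016) was lost when empty vector replicate 1 (0.11) or either DMSO library (0.11 and 0.078) was dropped.

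Ifih1, which encodes the RNA sensor MDA5, fell from 39.5 and 25.5 counts to 11 and 6.5 (log2 -1.66 ± 0.43, adjusted p = 0.0067). Leaving out empty vector replicate 1 (0.069) or the second DMSO library (0.076) removed that call. Ifih1 reached the minimum level only through the empty-vector group of the pair, so its fall was in part set by the filter. Mavs, the mitochondrial adaptor of RIG-I and MDA5, had 50.0 and 54.7 CPM against 52.1 and 46.4, overlapping groups, with an interval from -0.26 to 0.08. Dhx58, which encodes the related protein LGP2, was at -0.08 ± 0.41.

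All 7 tested genes of ubiquitin-like and ADP-ribosylation regulators were lower with c-Fos, against 20.7% of all genes tested. The DESeq2 Wald test called 6 of them lower. Isg15, Usp18, Parp14 and Dtx3l reached the minimum level only through the empty-vector group of the pair. Their falls, and so the count, were in part set by the filter. Parp12, an ADP-ribosyltransferase gene, had 19.7 and 16.4 CPM with the empty vector and 9.52 and 9.89 with DMSO. With afatinib it had 11.1 and 11.4 CPM and with UO126 10.85 and 10.4, and all 6 c-Fos libraries lay below both empty-vector libraries (-0.90 ± 0.11, adjusted p = 3e-05). The other 6 were scarce and are given as deposited counts. Isg15, the ubiquitin-like modifier, had 87 and 51 counts with the empty vector, 10.5 and 4.5 with DMSO, 6 and 11 under afatinib and 18 and 11.5 under UO126. Its change with c-Fos was -3.00 ± 0.39 (adjusted p = 3.9e-05), the largest of this role, and the empty-vector libraries differed by 2.48 against 3.77 CPM. Usp18, the protease that removes ISG15 and restrains the receptor, had 50 and 20 counts with the empty vector and 8 in each DMSO library (-1.83 ± 0.46). Leaving out empty vector replicate 1 (adjusted p = 0.13) or the first DMSO library (0.052) removed the call.

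Parp9 and Dtx3l, whose products form a complex, fell by 2.425 ± 0.306 and 1.70 ± 0.34 on the log2 scale. Parp9 had 109.5 and 81 counts with the empty vector and 9 and 19.5 with DMSO, and Dtx3l had 46 and 30 against 7 and 11.5. Their exons overlap on opposite strands by 458 bases in the GENCODE M21 annotation, and the library kit does not mark strand, so reads there cannot be told apart. Parp14, a further ADP-ribosyltransferase gene, had 61 and 56 counts against 9.5 and 8 (-2.41 ± 0.32, adjusted p = 5.1e-05). Trim21, an antibody receptor and ubiquitin ligase gene, changed by -0.97 ± 0.26, a call lost on dropping empty vector replicate 2 (adjusted p = 0.071) or the second DMSO library (0.1), and with the DESeq2 Wald test (0.067).

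Among the antiviral effectors 13 were tested, and 9 were lower with c-Fos, against 20.7% of all genes tested. Ifit2, one of the RNA-binding IFIT proteins, had 23.2 and 21.4 CPM with the empty vector, 14.8 and 13.3 with DMSO, 21.0 and 24.0 under afatinib and 17.7 and 16.7 under UO126. Only the afatinib libraries overlapped the empty vector, and the change with c-Fos was -0.67 ± 0.10 (adjusted p = 1.9e-04). Xaf1, a pro-apoptotic gene, had 8.70 and 6.51 CPM against 4.35 and 4.03 (-0.86 ± 0.185, adjusted p = 0.0021). Eif2ak2, the RNA-activated kinase PKR, had 38.05 and 36.3 CPM against 31.5 and 31.0. Its change of -0.25 ± 0.092 (adjusted p = 0.042) was not called without either empty-vector or DMSO library or afatinib replicate 2 (adjusted p between 0.05 and 0.25), with the replicate block (0.056), with DESeq2 size factors (0.056) or with the DESeq2 Wald test (0.12). Samd9l, a translation regulator gene, had 10.3 and 9.08 CPM with the empty vector, 6.86 and 5.40 with DMSO, 1.85 and 3.39 under afatinib and 3.57 and 2.40 under UO126. Its levels fell into 3 ranges, and the change with c-Fos of -0.66 ± 0.22 (adjusted p = 0.03) was not called without either empty-vector or DMSO library (adjusted p between 0.055 and 0.2), nor with the DESeq2 Wald test (0.059).

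The larger falls were in scarce genes. Of these, Ifit1 and Rsad2 reached the minimum level only through the empty-vector group of the pair, so their falls were in part set by the filter. Ifit1 had 44.5 and 58 counts with the empty vector and 5 and 6.5 with DMSO (-2.91 ± 0.40, adjusted p = 5.9e-05). Rsad2, which encodes viperin, had 28 and 24 counts against 1 and 2, so the empty-vector level was 14.3 times that with DMSO, with a 95% exact interval from 4.62 to 71.4 that covers counting error over the summed libraries and not the spread between them. Lgals3bp, a secreted glycoprotein gene, changed by -1.87 ± 0.32 and Bst2, which encodes the virus-tethering protein tetherin, by -0.95 ± 0.20. Mx2, a dynamin-like GTPase gene, changed by -0.79 ± 0.26 (adjusted p = 0.024), a call lost on dropping empty vector replicate 1 (0.15) or the first DMSO library (0.2), and with the DESeq2 Wald test (0.13). Cmpk2, Ifit3, Adar and Ifi35 did not pass. Of these Ifi35 was the only one above 0, with 15.15 and 12.5 CPM against 14.9 and 17.1, and 16.8% of its exon bases overlap an antisense transcript. Adar has the same share, with Chrnb2 on the opposite strand.

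**Figure D2:**
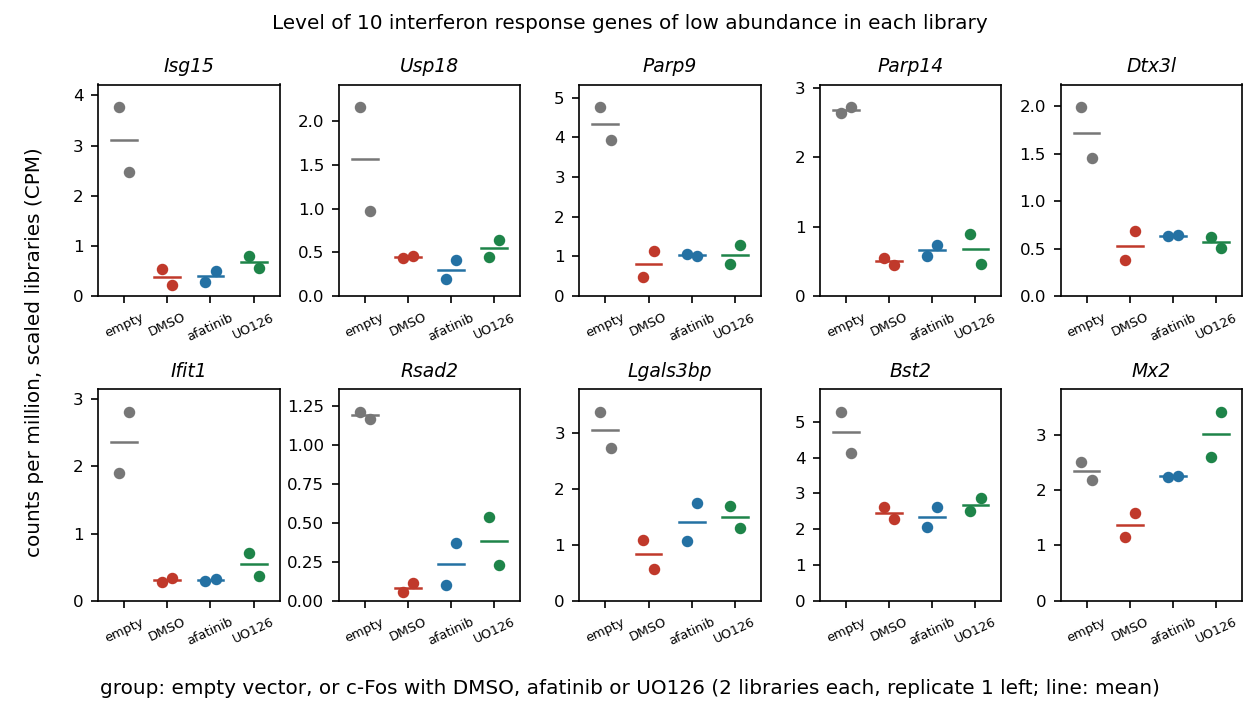
Level in CPM (y axis, from 0) of 10 interferon response genes of low abundance in the 2 libraries of each group (x axis), with the group mean as a line. In 9 of the panels both empty-vector points lie above all 6 c-Fos points, as for Isg15 at 3.77 and 2.48 CPM, whereas Mx2 with UO126 reaches 3.41 CPM against 2.51 CPM in the higher empty-vector library. The 10 genes were chosen with their values known. Isg15, Usp18, Parp14, Dtx3l, Ifit1 and Rsad2 reached the minimum level only through the empty vector of the DMSO pair. Of scarce members not shown, Ifih1, Ifit3 and Trim21 have the same order, and Cmpk2, Dhx58 and Irf7 do not.

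The 7 untested members had at most 17.5 counts in any library. Zbp1, Trim25, Oas1a, Oasl1 and Mx1 had at most 4.5 counts in every library. Oasl2 had 17.5 and 4.5 counts with the empty vector and between 0 and 3 with c-Fos, and Rtp4 had 12 and 9 against between 0 and 6. Low counts limit what can be said of these genes.

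The comparison of afatinib with DMSO asks what blocking the EGFR family changed in c-Fos cells. Among the 35 tested members 9 were higher and 5 lower, while 42.7% of all genes tested were called, 21.2% higher and 21.5% lower. Without afatinib replicate 2 the counts were 5 higher and 3 lower, and the lower count was also 3 without afatinib replicate 1 or DMSO replicate 2. This comparison shares its DMSO libraries with that of c-Fos against the empty vector, so a level low in both DMSO libraries enters both, and the values are given side by side only. Stat2 rose by 0.75 ± 0.085 (adjusted p = 1.3e-05), Ddx58 by 0.56 ± 0.11 (0.001) and Ifit2 by 0.68 ± 0.10 (1.6e-04). Jak1 rose by 0.235 ± 0.0645 (adjusted p = 0.0099), a call lost on dropping DMSO replicate 2 (0.051) or afatinib replicate 2 (0.07). Adar, which encodes an RNA-editing enzyme, went from 49.1 and 46.65 CPM with DMSO to 59.35 and 61.4 (0.335, adjusted p = 0.002). Of its exon bases 16.8% overlap Chrnb2 on the opposite strand, and reads there cannot be told apart. Cmpk2, a mitochondrial nucleotide kinase gene, went from 6.5 and 8.5 counts to 25 and 25.5 (1.61 ± 0.37, adjusted p = 0.0031). Of this pair of groups it reached the minimum level only with afatinib, so its rise may in part be set by the filter.

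A further 3 rises with afatinib were less stable. Irf9 rose by 0.50 (adjusted p = 0.019), Eif2ak2 by 0.31 (0.015) and Mx2 by 0.72 (0.039). Irf9 was not called without either DMSO library (0.064 and 0.084) or afatinib replicate 2 (0.11), and Eif2ak2 not without the same libraries (0.056, 0.063 and 0.093). Mx2 was not called without DMSO replicate 1 (0.24) or either afatinib library (0.096 and 0.11). With the DESeq2 Wald test neither Irf9 (0.084) nor Mx2 (0.16) was called.

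The 5 falls with afatinib included 2 sensors and a factor. Irf1 fell by 0.68 ± 0.087 on the log2 scale (adjusted p = 3.4e-05), Tlr3 by 0.85 ± 0.175 (0.0054) and Samd9l by 1.22 ± 0.26 (0.0035). Dhx58 went from 16.5 and 12.5 counts with DMSO to 4.5 and 8 (-1.44 ± 0.51, adjusted p = 0.037). That call ended without any one DMSO or afatinib library (adjusted p between 0.061 and 0.21) and with the DESeq2 Wald test (0.15). Of this pair of groups Dhx58 reached the minimum level only with DMSO, so its fall may in part be set by the filter. Ifi35 changed by -0.32 (adjusted p = 0.04), a call lost on dropping DMSO replicate 2 (0.35) or either afatinib library (0.18 and 0.14), with the replicate block (0.055) and with the DESeq2 Wald test (0.14). None of the 7 tested ubiquitin-like and ADP-ribosylation regulator genes was called, at an unadjusted p under 0.05 or by the DESeq2 Wald test either: Isg15 was at 0.04 ± 0.59, Parp12 at 0.21 ± 0.12 and Parp9 at 0.36 ± 0.40. The errors of the scarce genes would cover sizeable changes.

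UO126 against DMSO asks the same of MEK inhibition. Here 6 members were higher and 2 lower, against 13.9% and 14.7% (28.6% in all) of the genes tested, and with no low-count filter 11 of 42 were higher. Without DMSO replicate 1 there was 1 lower. Fos was lower in both UO126 libraries than in either DMSO library, and its part in these counts was not tested. The 6 higher genes were Stat2 (0.81 ± 0.085, adjusted p = 1.6e-05), Ddx58 (0.75 ± 0.11), Eif2ak2 (0.44 ± 0.091), Adar (0.32), Mx2 (1.13 ± 0.245) and Cmpk2 (1.47 ± 0.37), and all 6 were also higher with afatinib. The latter comparison uses the same DMSO libraries, and the share of all genes tested that were higher in both was not counted. Adar was not called without DMSO replicate 2 (adjusted p = 0.053), and Cmpk2 not without DMSO replicate 1 (0.085). Of this pair of groups Cmpk2 reached the minimum level only with UO126, so its rise may in part be set by the filter. Tlr3 fell by 1.095 ± 0.178 (adjusted p = 0.0028) and Samd9l changed by -1.035 ± 0.257 (0.012), and dropping DMSO replicate 1 removed the call of Samd9l (0.1). Irf1, in contrast to its level with afatinib, was at -0.03 ± 0.083 from DMSO, with DMSO and UO126 libraries overlapping. Of the regulator genes none was called, at an unadjusted p under 0.05 or among the 5 with an adjusted p from the DESeq2 Wald test either.

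**Figure D3:**
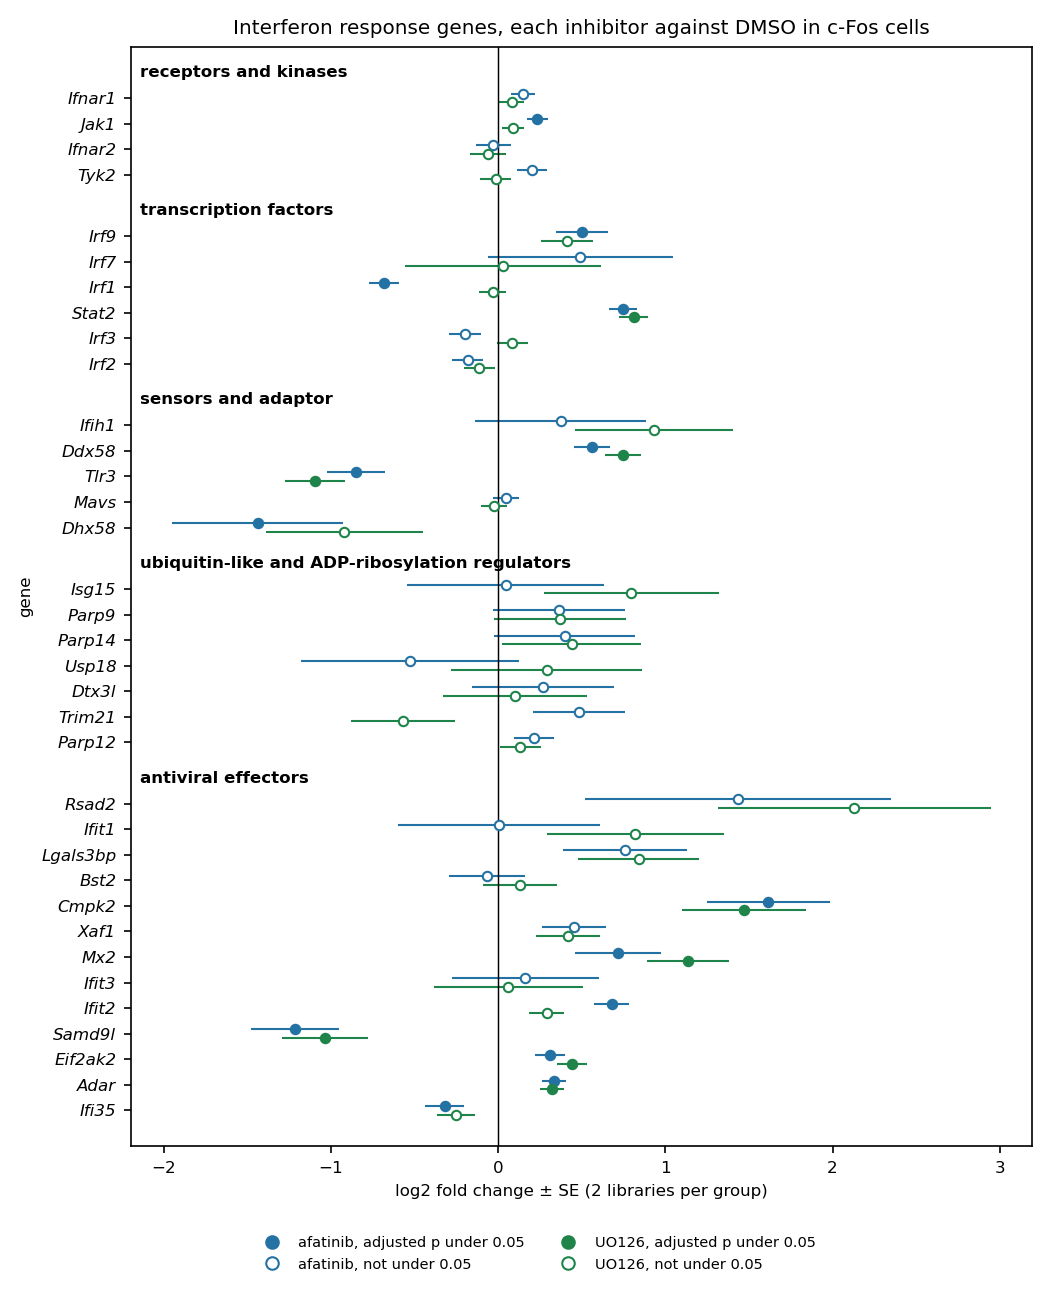
Log2 fold change (x axis, ± SE) of the 35 tested members (y axis, grouped by role) with afatinib (blue) or UO126 (green) against the shared DMSO libraries in c-Fos cells, 2 libraries per group. Filled points have an adjusted p under 0.05. Stat2, Ddx58, Mx2, Cmpk2, Eif2ak2 and Adar have filled points above 0 for both inhibitors, and Tlr3 and Samd9l have filled points below 0 for both.

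The 2 inhibitors were compared with each other directly. Of the 35 members 2 were higher and 1 lower with afatinib than with UO126, against 7.14% of all genes tested in each direction, 14.3% together. The higher count was 0 without afatinib replicate 2, 1 without afatinib replicate 1 or UO126 replicate 2, and 4 without UO126 replicate 1, where the lower count was 2. Irf1 was lower with afatinib by 0.65 ± 0.086 on the log2 scale (adjusted p = 3.2e-04), the afatinib libraries at 16.4 and 15.4 CPM lying below the UO126 libraries at 24.0 and 25.8. This held in every alternative run. Ifit2 was higher with afatinib (0.39 ± 0.099, adjusted p = 0.019), and Trim21 likewise at 41.5 and 42 counts against 25 and 17 (1.05 ± 0.28, adjusted p = 0.025). Both calls ended with the DESeq2 Wald test (0.053 and 0.11) and without afatinib replicate 2 (0.18 and 0.094), and that of Ifit2 also with only the compared libraries (0.059), and that of Trim21 without afatinib replicate 1 (0.11) or UO126 replicate 2 (0.095). For Stat2 the difference was -0.07 ± 0.080 and for Ddx58 -0.19 ± 0.10, neither called, and for Adar the 95% interval ran from -0.14 to 0.16. The drugs act on different targets and at doses of 5 and 10 µM, so the comparison is of these treatments and not of matched doses.

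**Figure D4:**
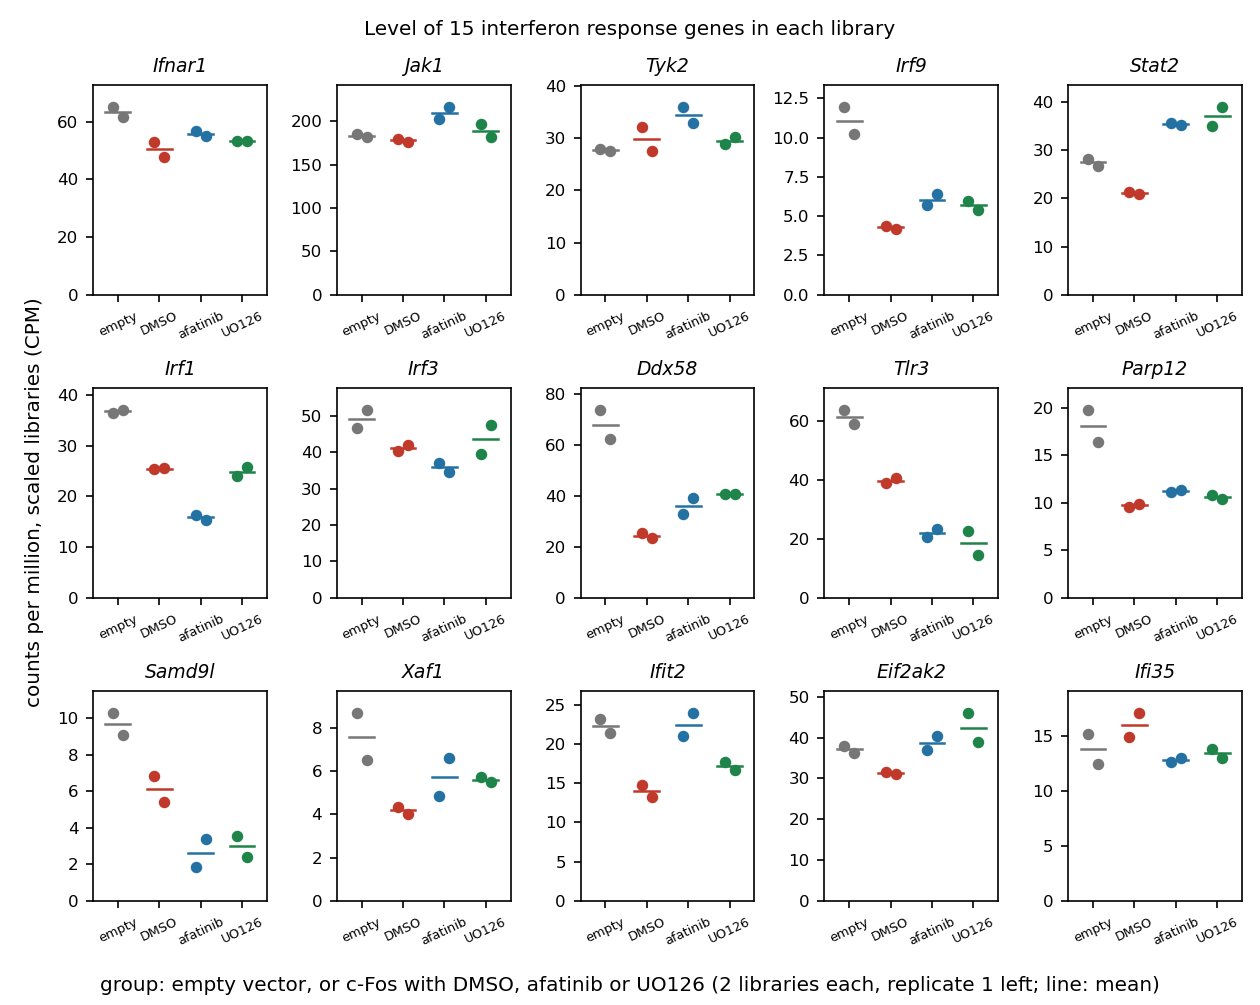
Level in CPM (y axis, from 0) of 15 interferon response genes in the 2 libraries of each group (x axis), with the group mean as a line. Stat2 is lowest with DMSO and highest with the inhibitors, Ddx58 is intermediate with the inhibitors, Tlr3 and Samd9l are lowest with the inhibitors, and Irf1 is lowest with afatinib.

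The inhibitor-treated c-Fos cells were also set against the empty vector. With afatinib 19 members were lower and 3 higher, against 23.4% and 21.7% of all genes tested (45.1% together). With UO126 19 were lower and 1 higher, against 19.4% and 18.3% (37.7% together). Without empty vector replicate 1 the count of lower members with UO126 was 12. All 3 comparisons with the empty vector share its 2 libraries, so their calls are not independent. Of the 24 members lower with c-Fos and DMSO, 15 were also called lower than the empty vector with both inhibitors. The same share was not counted over all genes tested, so this count is not a result particular to the members. The 15 were Irf1, Irf9, Ddx58, Tlr3, Isg15, Usp18, Parp9, Parp12, Parp14, Dtx3l, Ifit1, Rsad2, Bst2, Lgals3bp and Samd9l. Of these, Isg15, Usp18, Ifit1 and Rsad2 did not reach the minimum level in both afatinib libraries, nor Usp18, Parp14, Ifit1 and Rsad2 in both UO126 libraries, so their falls were in part set by the filter. With UO126 the calls of Usp18 (adjusted p = 0.25), Bst2 (0.086), Lgals3bp (0.1) and Rsad2 (0.058) ended without empty vector replicate 1, and that of Rsad2 also without UO126 replicate 2 (0.068). The DESeq2 Wald test did not call Usp18 (0.082), Lgals3bp (0.071) or Rsad2 (0.14) there. With afatinib the call of Lgals3bp ended without empty vector replicate 1 (0.065) or afatinib replicate 1 (0.074).

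Values against the empty vector differed by gene. Isg15 was at -2.95 ± 0.37 with afatinib and -2.20 ± 0.33 with UO126, and Parp9 at -2.06 ± 0.28 with each. Ddx58 was at -0.92 ± 0.099 and -0.73 ± 0.098, and Irf9 at -0.87 ± 0.13 and -0.96 ± 0.13. Tlr3 was at -1.48 ± 0.17 and -1.73 ± 0.17, and Samd9l at -1.88 ± 0.24 and -1.70 ± 0.235. Stat2 was the only member called higher than the empty vector with both, by 0.36 ± 0.082 (adjusted p = 0.0025) and 0.43 ± 0.081 (9.2e-04). The other 2 members called higher with afatinib were Tyk2 (0.31, adjusted p = 0.011) and Jak1 (0.19, adjusted p = 0.027). Tyk2 was not called without afatinib replicate 1 (0.077). Jak1 was not called without either empty-vector library (0.055 and 0.1) or afatinib replicate 2 (0.13), or with the replicate block (0.051). Of the effectors lower with c-Fos, Mx2, Eif2ak2 and Xaf1 did not pass against the empty vector with either inhibitor.

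**Figure D5:**
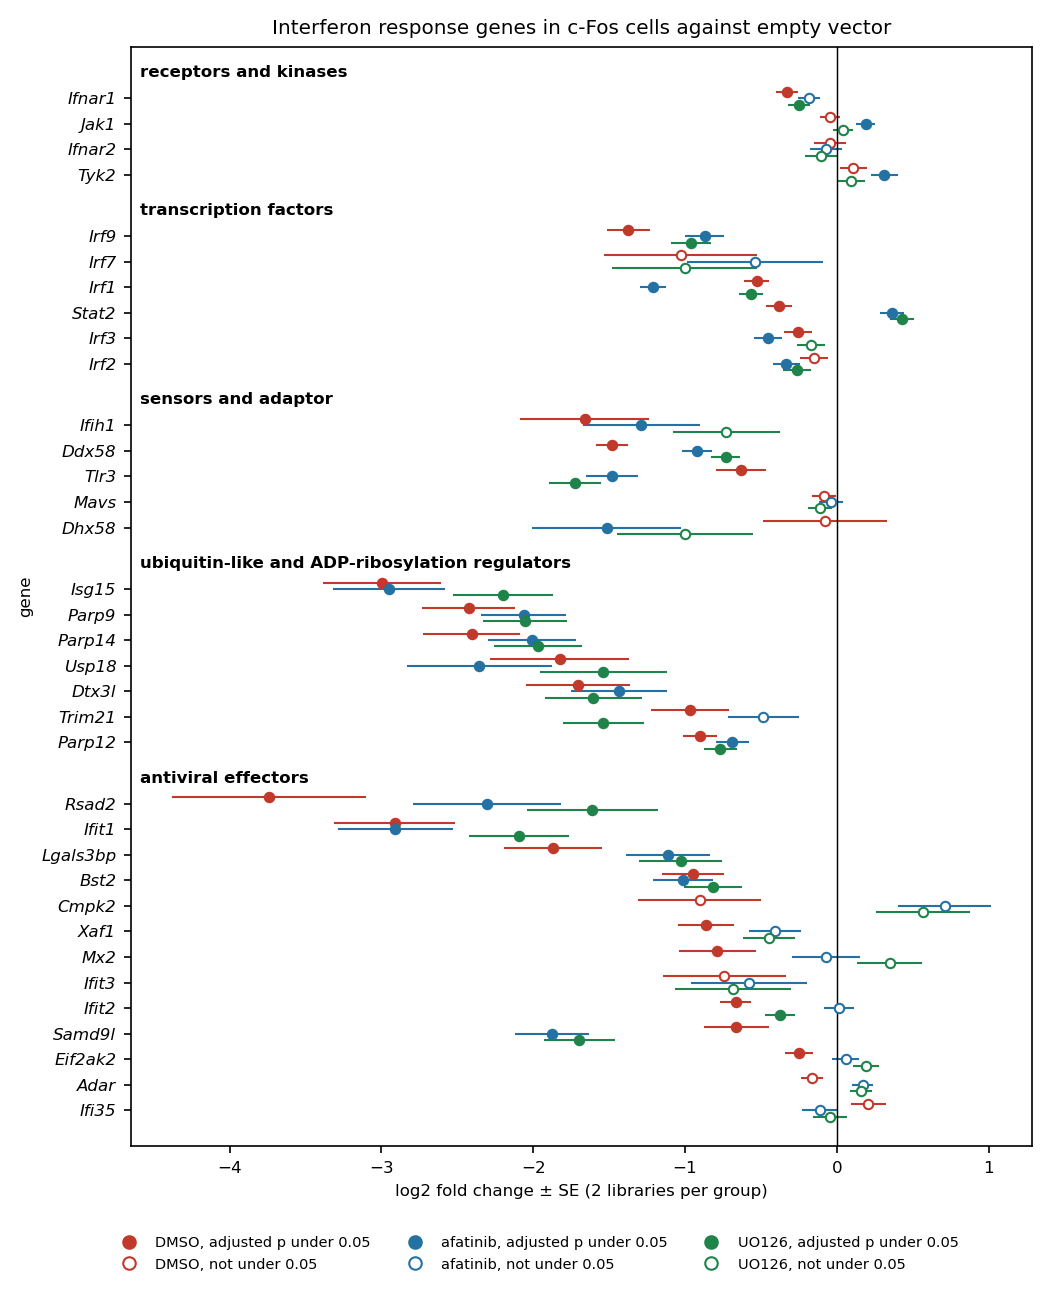
Log2 fold change against the empty vector (x axis, ± SE) of the 35 tested members (y axis, grouped by role) in c-Fos cells with DMSO (red), afatinib (blue) or UO126 (green), 2 libraries per group, with the empty-vector libraries shared. Filled points have an adjusted p under 0.05. Those of Irf1, Irf9, Ddx58, Tlr3, Isg15, Usp18, Parp9, Parp12, Parp14, Dtx3l, Ifit1, Rsad2, Bst2, Lgals3bp and Samd9l are filled and below 0 in all 3 groups. Of these, Isg15, Usp18, Parp14, Dtx3l, Ifit1 and Rsad2 reached the minimum level only through the empty vector of the DMSO pair. Stat2 is below 0 with DMSO and above 0 with both inhibitors.

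Other genes of the pathway were read from lists. Of 10 interferon genes, 5 had no count in any library and none was tested. Ifnb1, the gene of interferon beta, had 4 and 6.5 counts with the empty vector, 0 in both DMSO libraries, 1.5 and 1 under afatinib and 2 and 5.5 under UO126, too few to compare. Among 35 further interferon-inducible genes 25 were tested, and with c-Fos 14 were lower and 3 higher, against 20.7% and 21.5% of all genes tested. Irgm1, an immunity-related GTPase gene, fell by 1.80 ± 0.13 and Ifi27 by 1.38 ± 0.19. Ifi204, a DNA-sensor family gene with close copies that can share reads, moved the other way, from 6.84 and 5.88 CPM to 21.6 and 21.4 (1.75 ± 0.13, adjusted p = 1.7e-07).

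In the list of signalling genes upstream of interferon, 10 of 13 were tested, and with c-Fos edgeR called 1 lower, Rnf135 (-0.72, adjusted p = 0.013), and 0 higher, against 20.7% and 21.5% of all genes. At an unadjusted p under 0.05 there were 2 lower and 0 higher, and the DESeq2 Wald test called 0 in either direction. With afatinib 4 were higher and 1 lower, against 21.2% and 21.5% of all genes, and with UO126 4 were higher and 1 lower, against 13.9% and 14.7%. The lower gene in both was Mb21d1, which encodes the DNA sensor cGAS, at -1.05 and -0.87 against DMSO. Of 10 genes of negative regulators 2 were higher and 4 lower with c-Fos, the former near the 21.5% of all genes and the latter beside 20.7%. Among these were the phosphatase gene Ptpn6 (-1.12) and Socs1, a feedback inhibitor of the JAK kinases (-0.90), both lower, and Socs3 (0.49), higher. Against DMSO, Tnfaip3, which restrains NF-kB signalling, fell by 1.21 on the log2 scale with afatinib and by 0.495 with UO126. Of the 5 genes of interferon gamma and lambda receptors and JAK2, 1 was lower with c-Fos, Ifngr2 (-0.52), close to the 20.7% of all genes. With afatinib 4 were higher, against 21.2% of all genes, with Ifnlr1, the lambda receptor chain, at 0.78. With UO126 1 was higher and 1 lower, against 13.9% and 14.7%.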

How the data were processed

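Messenger RNA of 8 ASZ001 libraries was sequenced. Per the labels' protocols, an Illumina TruSeq RNA kit was used, and reads from such libraries carry no strand information. Per the series design text, the authors aligned reads with TopHat and counted them with HOMER; the submitters' processing notes also name mm9 and DESeq2, with no role or version. The deposited expected counts per gene symbol are not normalized, and between 47.9% and 49.5% of values above 0 end in 0.5. Of 24909 entries, 26 with symbols turned into dates were left out. The deposited Length is in bases, another unit that was used only for levels per kilobase.

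Counts were rounded and analysed with edgeR 4.0.16 in R 4.3.3: the filter by expression (minimum count 10, minimum total 15, about 0.474 CPM in 2 libraries), trimmed mean of M-values and the robust quasi-likelihood test on all 8 libraries, 1 coefficient per group, 4 residual degrees of freedom. Each test was two-sided, with Benjamini-Hochberg adjustment over 12879 genes and calls under 0.05. On simulated counts the test recovered most changed genes, but the share of false calls lay above the nominal level in all comparisons, so calls near the threshold are less certain than their adjusted p. The members and lists were chosen with earlier results of these data known. Within each role, up to 4 members are given with every library. These have the largest called change in the first 3 comparisons, among members at 5 CPM or more without overlap. Those against the direction of their role are also given. Other-list genes are up to 3 called per comparison at 5 CPM. Rnf135, below 5 CPM in both groups, and the untested Ifnb1 were named outside this rule. Scarce members fall outside the rule for members and were named after their values were seen. Alternatives were DESeq2 1.42.0 size factors and Wald test, other filters, only the compared libraries, a replicate block, no robust estimation, adjusted p under 0.01, no Rn45s and leaving out each library. Exon overlaps and promoters come from GRCm38, since the counts carry no coordinates.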

Additional observations from a re-analysis of the deposited data

How the results depend on the processing

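Across 17 alternatives no called member changed direction. Counts of called members moved by over 1.5 times as follows. With at least 5 CPM, which left 19 members tested, 12 were lower with c-Fos, 9 were lower than the empty vector with afatinib and 9 with UO126, and 1 was higher with afatinib than with UO126. With no low-count filter 11 were higher with UO126 against DMSO, and 2 lower with afatinib than with UO126. The DESeq2 Wald test gave 3 lower with afatinib against DMSO and 0 higher with afatinib than with UO126. With adjusted p under 0.01 these were 3 and 0, 1 was lower with UO126 against DMSO and 1 higher than the empty vector with afatinib. With only the compared libraries 1 was higher with afatinib than with UO126.

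Leaving out 1 library at a time gave between 16 and 25 lower and 0 higher with c-Fos. It gave between 5 and 11 higher and 3 and 7 lower with afatinib against DMSO, and between 5 and 9 higher and 1 and 2 lower with UO126. Afatinib against UO126 had between 0 and 4 higher and 1 and 2 lower. Against the empty vector, afatinib had between 2 and 4 higher and 16 and 22 lower, and UO126 between 1 and 2 higher and 12 and 23 lower.

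The replicate block gave 23 lower with c-Fos, 9 higher and 4 lower with afatinib against DMSO and 6 and 2 with UO126. Same-numbered libraries did not deviate together, with correlations between -0.21 and 0.12, so the numbers were not taken as pairs. The longer ISRE letters occurred in 14.7% of members with a window, against 35.3% for the shorter. Low counts limit the scarce genes: the changes of Isg15 and Ifit1 with c-Fos had standard errors of 0.39 and 0.40 on the log2 scale, and those with afatinib against DMSO 0.59 and 0.60.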

Other observations

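The letters of 2 other elements were read in the same promoter windows. The letters TTCNNNGAA of the gamma-activated site occurred in 10 of the 34 genes with a window, among them Irf1, Eif2ak2 and Bst2, against 9.55% of all genes. TGANTCA, a loose form of the AP-1 element that takes any base in the middle, occurred in 4 of the 34, against 8.97% of all genes. The 4 were Ifi35, Ifit3, Rsad2 and Xaf1. Of these 4, Rsad2 and Xaf1 were lower with c-Fos, and Ifi35 and Ifit3 did not pass.

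Of the 35 tested members, 26 had their highest mean in the empty-vector group and 22 their lowest with DMSO. The lowest mean lay with afatinib for 8 members, among them Irf1, Irf2 and Irf3, and with UO126 for 4, Ifnar2, Tlr3, Mavs and Trim21. These are orders of means of 2 libraries, and they were not tested or counted over all genes. The 9 members that reached the minimum level only through the empty vector of the DMSO pair are among those counted. The orders were thus in part set by the filter.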
